A study of Mus musculus with 6 samples.

Results

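The 10 genes described here encode the calcium pumps of the endoplasmic reticulum (ER) (Atp2a2, Atp2a3), its IP3-gated release channels (Itpr1, Itpr2, Itpr3), and the sensors and plasma membrane channels of store-operated calcium entry (Stim1, Stim2, Orai1, Orai2, Orai3). They were chosen by name, and all 10 were found among the 24848 gene symbols of a table of gene levels. The comparison was between RAW 264.7 cells with an APOBEC1 knockout (KO, 3 libraries) and wild-type RAW 264.7 cells (WT, 3 libraries). RAW 264.7 is a macrophage-like mouse line. APOBEC1 is a cytidine deaminase that edits C to U in RNA, and the series was made to compare 2 ways of measuring such editing, which the gene levels used here do not hold. Each library came from its own plate, and the labels name no other treatment. They do not say how the knockout was made or whether the KO cells are a single clone. An effect of the genotype and one of any other difference between the lines cannot be told apart.

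The genes were picked with the KO against WT results known, Atp2a3 being among the genes that differed most. Their differences are therefore given as a description with no p-value. Whether each passed the threshold is stated only as a reading from a limma fit over all genes, which called a gene at a Benjamini-Hochberg adjusted p under 0.05. Levels are CPM, each gene's reads scaled to all gene reads of its library, and means carry the SD of the 3 libraries. Log2 fold changes are KO over WT on log2(CPM + 0.5), as estimate ± SE, a scale that understates the change of low genes.

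Cells keep their ER full of calcium with SERCA pumps, which use ATP to move the ion in from the cytosol. Receptors coupled to phospholipase C generate IP3, which opens IP3 receptors in the ER membrane and lets the calcium out. When the store runs low, STIM proteins in the ER membrane sense the loss and open ORAI channels in the plasma membrane, and the calcium that enters refills the store and feeds calmodulin, calcineurin and NFAT. In macrophages this circuit acts downstream of Fc, chemoattractant and purinergic receptors.

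Depth was 59768682 to 70411383 gene reads in KO libraries and 50493447 to 67392191 in WT libraries. The targeted gene, Apobec1, was read at 339, 340.1 and 361 CPM in KO and at 373, 431 and 396 CPM in WT (log2 fold change -0.20 ± 0.07, adjusted p = 0.0663), so its mRNA was present in every library and does not check the labels. That difference passed the threshold under 4 of the 18 alternative settings tried, with log2 fold changes of -0.27 to -0.18. All 10 macrophage markers were present, with a summed level of 3970 to 4402 CPM in KO and 3667 to 3810 CPM in WT. Of these, Lyz2, Spi1 and Mertk rose, Adgre1 and Fcgr1 fell and 5 did not pass. Spi1 and Mertk lie on chromosome 2, and Apobec1 on chromosome 6. Lyz2 alone averaged 1238 ± 121 CPM in KO and 708 ± 49.0 CPM in WT. The summed T cell list stood at 6.59 to 7.51 CPM in KO and 3.58 to 4.69 CPM in WT. Lck held most of that, and Cd3e, Cd3g and Cd8a were listed at 0 throughout. The B cell list (Ms4a1 at 0) stood at 0.156 CPM or less in KO and 0.257 to 0.317 CPM in WT. The fibroblast list (Col1a1, Col3a1 and Dcn at 0) stood at 0 to 0.0300 CPM in KO and 0 to 0.0297 CPM in WT. The epithelial list (Krt18 and Krt19 at 0) stood at 0 to 0.114 CPM in KO and 0 to 0.0445 CPM in WT. All 4 lists were thus far below the macrophage list. Genes of chromosome 2 had a median log2 fold change of 0.34 and those of chromosome 6 of -0.16, against -0.02 over all tested genes. The part of these shifts in single results was not tested.

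In KO cells 3 of the 10 genes fell, Atp2a3, Itpr1 and Itpr2, and the other 7 did not pass the threshold. Over all 10614 tested genes 30.4% were called, 16.9% lower and 13.5% higher, and 18.6% were called without KO replicate 1. Groups did not overlap for 5 of the 10 genes, against 46.4% of all tested genes. A gene was tested where 3 or more libraries reached 1 CPM. All 10 were, but Atp2a3 qualified through the WT libraries alone and so had to differ. Their median log2 fold change was -0.06, beside -0.02 over all tested genes.

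**Figure D1:**
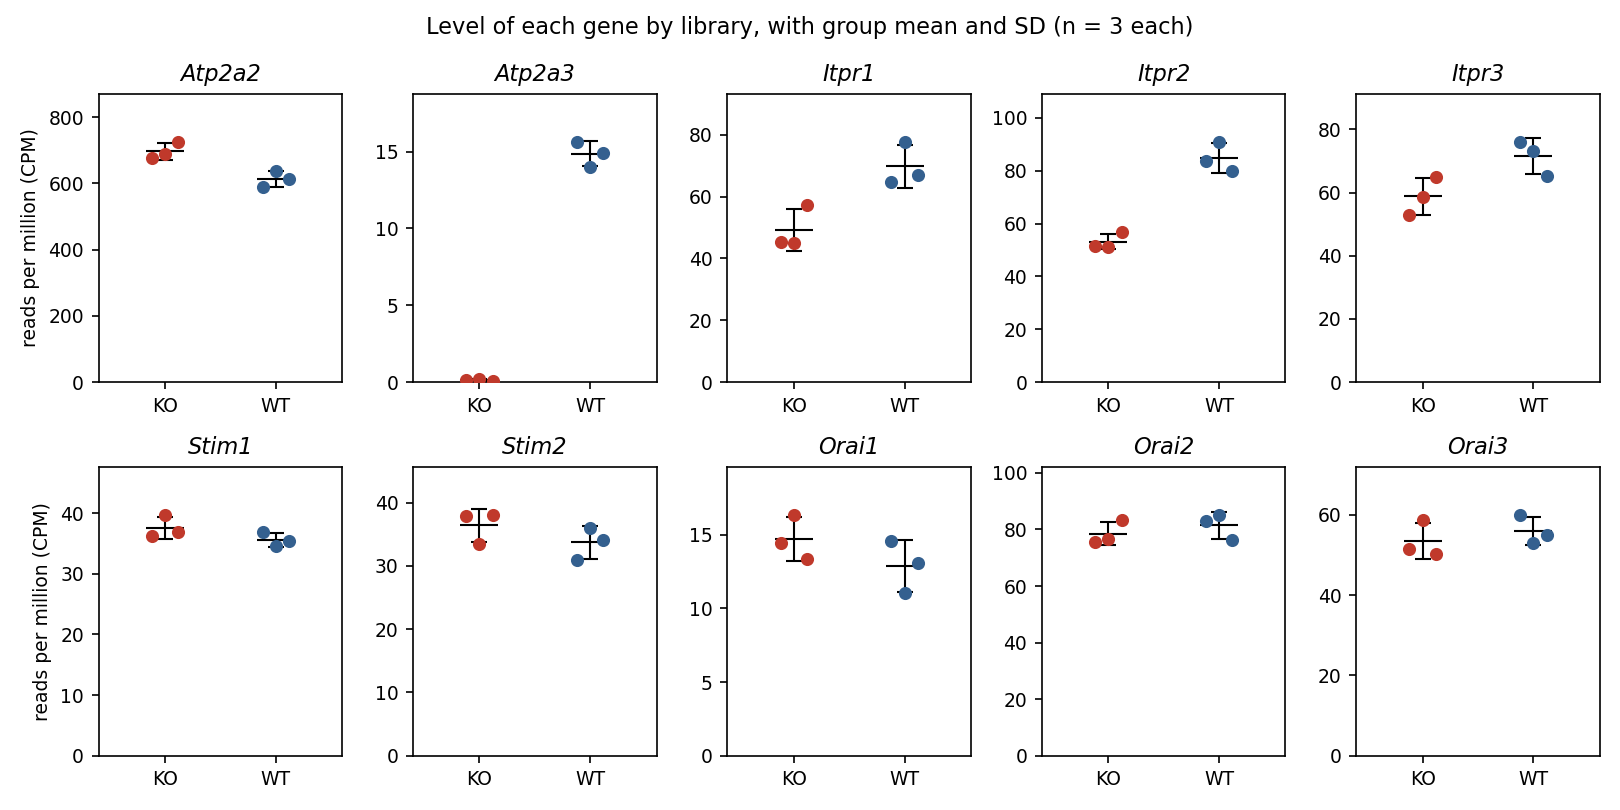
Level of each of the 10 genes in CPM in KO and WT libraries. Points are libraries, horizontal lines are group means and bars are the SD (n = 3 each), with each vertical axis starting at 0. Atp2a3 lies near 0 in KO, and the KO points of Itpr1, Itpr2 and Itpr3 lie below all WT points.

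The regions around the transcription starts of Atp2a3 and Itpr2 are shown because these genes fell and have an entry among the RefSeq promoters (build GRCm38.p6, 250 bases before to 50 after the start), as 8 of the 10 genes do. Capitals mark the GC box GGGCGG on either strand, a letter pattern bound by Sp factors. The Atp2a3 sequence lies at chr11:72960919-72961218 on the plus strand and the Itpr2 sequence at chr6:146502174-146502473 on the minus strand.
Atp2a3: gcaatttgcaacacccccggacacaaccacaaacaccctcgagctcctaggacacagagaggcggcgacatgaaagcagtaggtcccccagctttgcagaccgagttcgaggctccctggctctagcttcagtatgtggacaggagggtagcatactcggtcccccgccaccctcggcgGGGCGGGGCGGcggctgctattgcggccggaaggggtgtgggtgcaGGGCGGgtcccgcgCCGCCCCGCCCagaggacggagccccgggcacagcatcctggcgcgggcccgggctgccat
Itpr2: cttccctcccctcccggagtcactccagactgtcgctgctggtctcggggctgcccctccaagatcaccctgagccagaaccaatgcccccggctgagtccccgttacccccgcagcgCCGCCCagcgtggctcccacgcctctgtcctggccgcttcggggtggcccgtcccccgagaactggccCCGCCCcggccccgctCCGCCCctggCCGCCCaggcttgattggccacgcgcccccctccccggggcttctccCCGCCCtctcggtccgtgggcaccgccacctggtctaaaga
Both promoters were rich in CG dinucleotides, with 25 in Atp2a3 and 26 in Itpr2, against a median of 7 over the 32851 promoters of the table. Genes that did not pass had 39 (Stim2), 38 (Stim1), 36 (Orai1), 30 (Itpr3), 24 (Orai2) and 11 (Orai3). Atp2a3 and Itpr2 each held 5 GC boxes, and in Atp2a3 neighbouring boxes share a base. All 8 promoters held at least 1 GC box (1 in Itpr3 and Orai3, 8 in Stim1), as did 35.7% of all promoters. The CCAAT box CCAAT was in 4 of the 8 (Itpr2, Stim2, Orai1, Orai3) and in 37.4% of all promoters. The TATA box TATAAA was in none of the 8 and in 13.6% of all promoters, and the AP-1 pattern TGANTCA in none of the 8 and in 7.81%. All motifs were searched on both strands. The letters GAGGAA, a pattern read by the macrophage factor PU.1, were found in 1 of the 8, Orai3, and in 28.3% of all promoters. Patterns of other ETS factors were not searched. A match or its absence in this window says nothing of binding.

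Atp2a3 encodes SERCA3, a pump with lower calcium affinity than SERCA2 that is typical of blood and endothelial cells. It was almost absent from KO cells, at 0.170, 0.184 and 0.0900 CPM, against 15.6, 14.0 and 14.9 CPM in WT cells. Behind these values stood 12, 11 and 6 reads in the KO libraries and 790, 944 and 872 reads in the WT libraries. The KO values lay above the limit that a count of 0 allows (3 reads, 0.0426 to 0.0502 CPM in KO), so some reads were still assigned to the gene. Whether any of these reads were wrongly assigned was not tested. The WT over KO ratio of summed reads, scaled to depth, was 100.3, with an exact 95% interval from counting error of 69.7 to 150.1. The interval pools the reads of the 3 libraries of each group, so it leaves out the spread between libraries. Reads carry no molecular identifiers, so such intervals and limits cover the counting of reads and not of RNA molecules. The fitted log2 fold change was -4.57 ± 0.10, the second lowest of all 10614 tested genes, and over the 18 alternative settings it ranged from -6.63 (DESeq2 on recovered reads) to -3.79 (pseudocount of 1 CPM). In bulk RNA, fewer cells with the transcript and less transcript per cell cannot be told apart.

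Atp2a2 encodes SERCA2, the pump present in nearly all cells. It had the most reads of the 10 genes, at 678, 687 and 726 CPM in KO and 589, 638 and 614 CPM in WT. All KO values lay above all WT values, by a log2 fold change of 0.18 ± 0.06 that did not pass the threshold. The difference passed it with TMM scaling (0.23), in edgeR (0.21) and in DESeq2 (0.21), settings that called 32.1%, 31.6% and 35.4% of all genes, and was positive under all 18. The muscle pump Atp2a1 was at 0.0359 ± 0.0185 CPM in KO and 0.0493 ± 0.0217 CPM in WT.

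Per kilobase of the longest coding transcript, Atp2a3 made up 0.0121% to 0.0261% of the summed SERCA level in KO and 2.09% to 2.52% in WT. The summed level was 155 ± 5.65 CPM per kb in KO and 140.0 ± 5.29 CPM per kb in WT. Atp2a3 was thus a small part of the family's mRNA in WT already, and the KO libraries held the higher sums, 151 to 162 against 135 to 145 CPM per kb in WT.

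The 3 IP3 receptor genes were all lower in level in KO libraries, without overlap between the groups, a pattern that 25.4% of all tested genes showed in that direction. Itpr2 encodes the receptor most sensitive to IP3. It fell to 51.6, 51.3 and 56.6 CPM in KO, against 83.6, 91.0 and 79.9 CPM in WT, a log2 fold change of -0.67 ± 0.08. Itpr1, whose product is best known from neurons, fell to 45.3, 45.1 and 57.2 CPM in KO, against 64.7, 77.8 and 66.9 CPM in WT (log2 fold change -0.50 ± 0.11). The Itpr1 call was lost without KO replicate 1 and without KO replicate 2, where the log2 fold change was -0.45 each time and 18.6% and 20.7% of all genes were called. Itpr3, the IP3 receptor of many epithelial and secretory cells, was at 53.0, 58.7 and 64.8 CPM in KO and 76.1, 73.3 and 65.3 CPM in WT. Its groups were separated by a narrow gap, and its log2 fold change of -0.28 ± 0.09 did not pass. It passed with quantile normalization (-0.29), after rescaling without the ribosomal RNA precursor Rn45s (-0.30), in DESeq2 (-0.26) and without KO replicate 3 (-0.35). Of all genes 28.8%, 31.7%, 35.4% and 22.3% were called under these 4 settings.

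Summed per kilobase, IP3 receptor transcripts stood at 14.9, 15.5 and 17.8 CPM per kb in KO and 22.2, 23.8 and 20.9 CPM per kb in WT, a KO over WT ratio of 0.721. With lengths taken from all merged exons the ratio was 0.733. Itpr2 supplied 27.2% to 29.6% of that sum in KO and 32.3% to 32.8% in WT. Itpr3 supplied 39.6% to 42.2% in KO and 34.2% to 38.2% in WT, and the share of Itpr1 overlapped, at 29.5% to 32.4% in KO and 29.6% to 33.1% in WT. In KO libraries Itpr3 thus had a larger share of the receptor transcripts and Itpr2 a smaller one. The ratio of summed SERCA to summed IP3 receptor level was 9.07 to 10.1 in KO and 6.07 to 6.71 in WT.

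**Figure D2:**
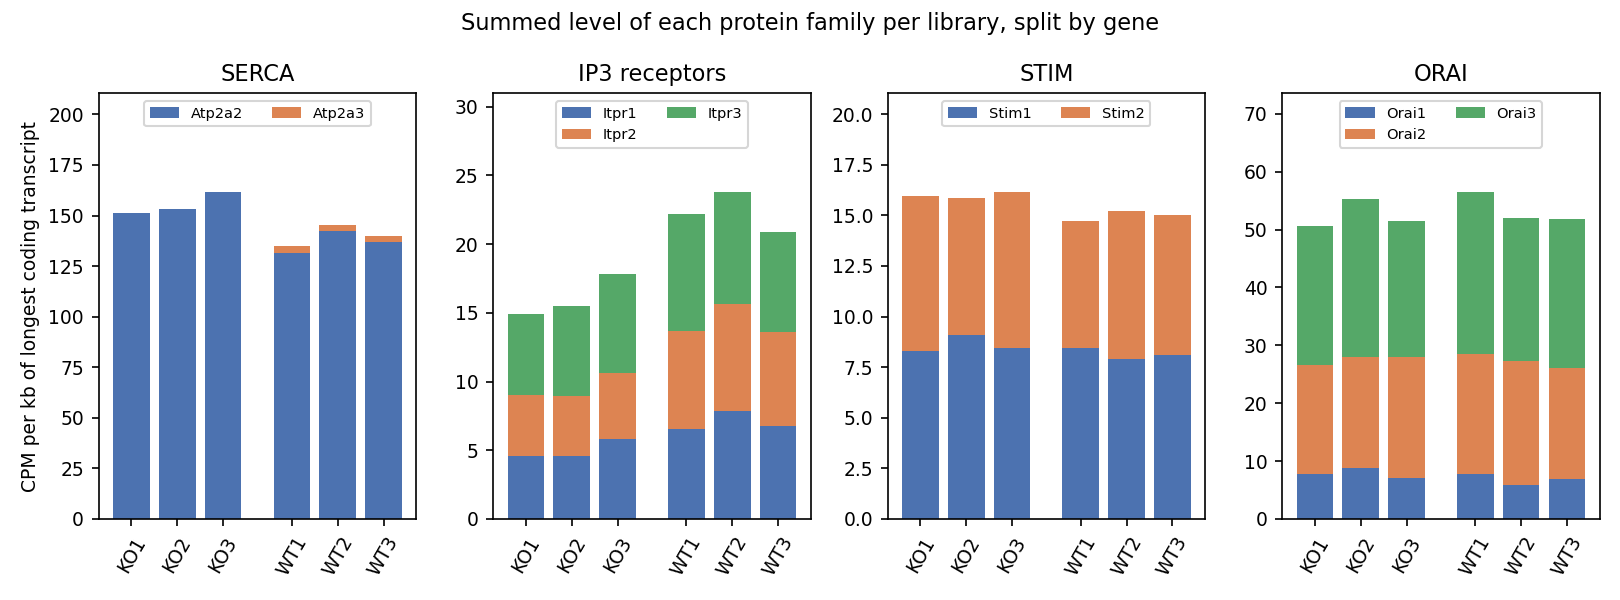
Summed level of each protein family in every library, in CPM per kilobase of the longest coding transcript, split by gene, with KO libraries left of WT libraries and each axis starting at 0. The IP3 receptor bars are lower in KO, 14.9 to 17.8 against 20.9 to 23.8 CPM per kb in WT, while the thin Atp2a3 part of the SERCA bars is visible only in WT.

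The sensors of store depletion did not pass the threshold. Stim1, the main trigger of store-operated entry, was at 36.2, 39.7 and 36.9 CPM in KO and 36.9, 34.5 and 35.4 CPM in WT. Stim2, which responds to smaller drops in ER calcium, was at 37.9, 33.4 and 38.0 CPM in KO and 31.0, 36.0 and 34.2 CPM in WT. The groups overlapped for both genes, with log2 fold changes of 0.08 ± 0.07 for Stim1 and 0.11 ± 0.09 for Stim2. Their summed level per kilobase was 15.9 to 16.2 CPM per kb in KO and 14.7 to 15.2 CPM per kb in WT, where the sums did not overlap. With merged exon lengths the sums overlapped, at 10.3 to 11.0 CPM per kb in KO and 9.59 to 10.3 CPM per kb in WT.

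The channel genes did not pass either. Orai1 encodes the pore of the classical calcium-release-activated channel and had 14.4, 16.3 and 13.4 CPM in KO and 14.6, 11.0 and 13.0 CPM in WT (log2 fold change 0.19 ± 0.12). Orai2, a paralog that can join the same channel, had 75.6, 76.7 and 83.3 CPM in KO and 83.0, 85.1 and 76.1 CPM in WT (log2 fold change -0.05 ± 0.07). Orai3, a paralog found in mammals, had 51.4, 58.6 and 50.2 CPM in KO and 59.9, 52.9 and 55.1 CPM in WT (log2 fold change -0.07 ± 0.08). In each case the groups overlapped and the call was the same under all 18 alternative settings, which does not show that the levels were equal. The summed ORAI level was 50.7 to 55.3 CPM per kb in KO and 51.8 to 56.6 CPM per kb in WT.

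Orai1 was the smallest ORAI transcript pool, with 13.8% to 15.8% of the summed level per kilobase in KO and 11.3% to 13.7% in WT. Orai3 was the largest, with 45.6% to 49.5% in KO and 47.6% to 49.7% in WT, and Orai2 held 34.8% to 40.6% in KO and 36.8% to 41.1% in WT. Stim1 made up 51.9% to 57.3% of the STIM sum in KO and 52.0% to 57.4% in WT. With merged exon lengths it made up 32.1% to 37.0% in KO and 32.2% to 37.1% in WT, so which STIM gene holds the larger share depends on the length used.

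Ordered by level per kilobase, Atp2a2 led in both groups, with 155 CPM per kb in KO and 137 CPM per kb in WT. Orai3 followed with 25.0 in KO and 26.1 in WT, and Orai2 with 19.7 in KO and 20.4 in WT, each clear of its neighbours. Atp2a3 was last with 0.0322 CPM per kb in KO and 3.23 CPM per kb in WT. In KO the genes between ran Stim1 (8.62), Orai1 (7.84), Stim2 (7.39), Itpr3 (6.55), Itpr1 (4.98) and Itpr2 (4.55). There the libraries of neighbours overlapped except between Itpr3 and Itpr1. In WT the order was Stim1 (8.16), Itpr3 (7.96), Itpr2 (7.26), Itpr1 (7.07), Orai1 (6.87) and Stim2 (6.83), with overlap at every step. With merged exon lengths the first 3 genes and the last were unchanged in both groups, while Stim1 moved to 7th in KO and 9th in WT, so the order of the middle genes depends on the length used.

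**Figure D3:**
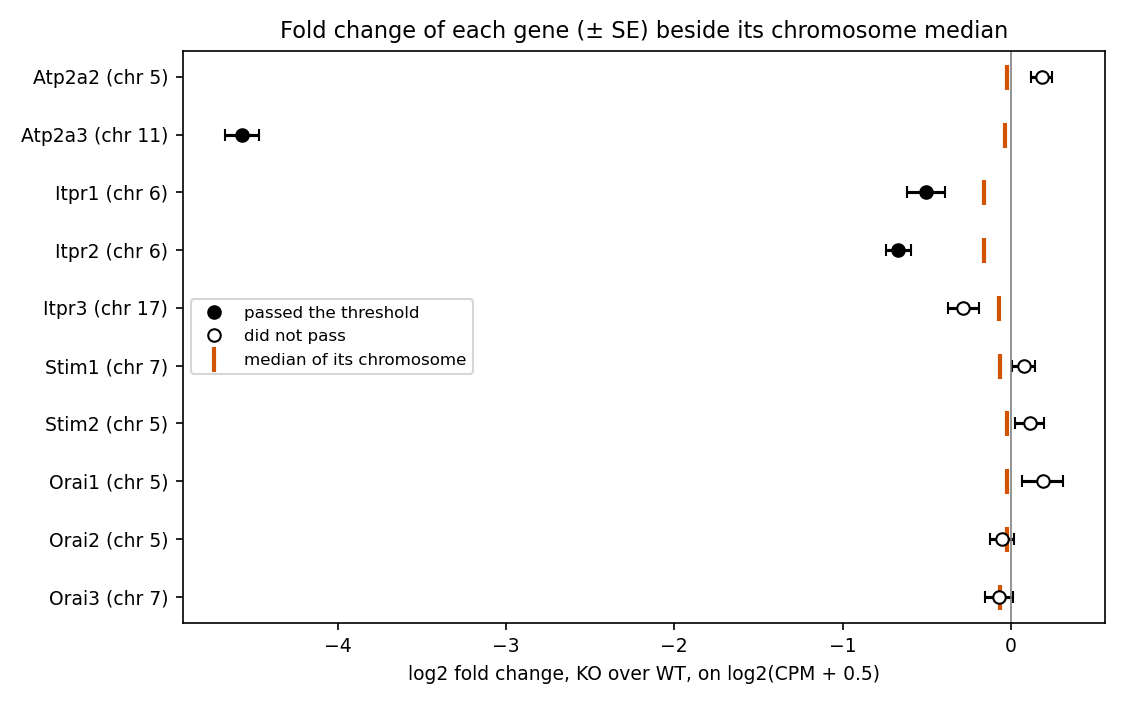
Log2 fold change (KO over WT, on log2(CPM + 0.5)) of each gene with its SE, filled where the fit over all genes called it, beside the median of all tested genes on its chromosome (orange tick). Atp2a3 stands at -4.57, and Itpr1 and Itpr2 lie left of the chromosome 6 median of -0.16.

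By position (GENCODE M21, mm10), Atp2a3 (ENSMUSG00000020788.15) is on chromosome 11, 72961169 to 72993044, plus strand. The other 9 tested genes whose span comes within 500 kb of it had log2 fold changes of -0.18 to 0.24, and 1 of them rose and 8 did not pass. No other tested gene of chromosome 11 was as low (0% of 901). Itpr1 (ENSMUSG00000030102.11; 108213096 to 108551109, plus strand) and Itpr2 (ENSMUSG00000030287.15; 146108299 to 146502223, minus strand) both lie on chromosome 6, where 155 of 517 tested genes fell and 29 rose. Of the other genes there, 12.8% were as low as Itpr1 or lower, and 8.72% as low as Itpr2. Within 500 kb, 4 of the 6 tested neighbours of Itpr1 fell (median log2 fold change -0.31), and 1 of the 9 neighbours of Itpr2 fell and 1 rose (median -0.23). The windows were chosen after the values were seen, and the part of position in the falls of Itpr1 and Itpr2 was not tested.

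Atp2a2 (ENSMUSG00000029467.15) and Orai1 (ENSMUSG00000049686.14) bound a stretch of 577 kb on chromosome 5, 122453513 to 123030456, that also holds P2rx7, P2rx4 and Camkk2 and was singled out after the values were seen. P2rx7 and P2rx4 encode ATP-gated cation channels that pass calcium, and Camkk2 a kinase switched on by calcium and calmodulin. Of the 5, P2rx7 alone was called. The 10 tested genes in that stretch had a median log2 fold change of -0.05, with 1 higher and 3 lower.

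**Figure D4:**
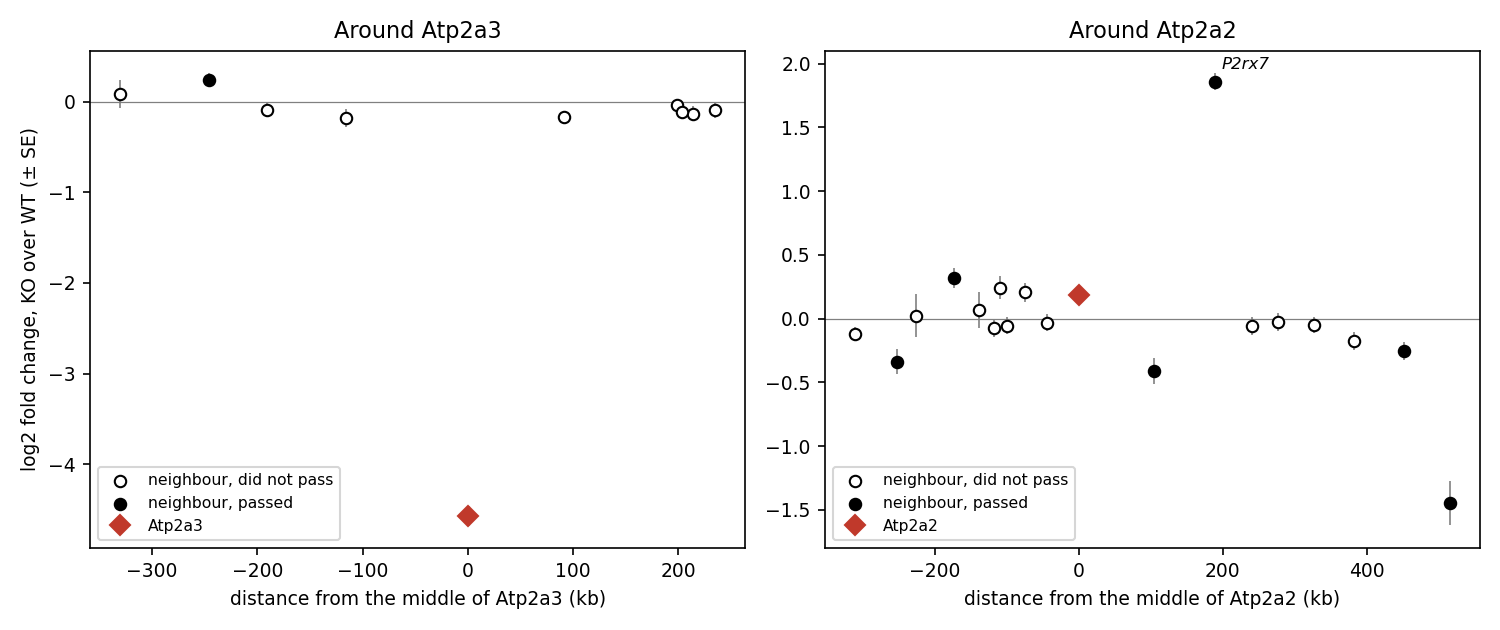
Log2 fold change (KO over WT, ± SE) of tested genes within 500 kb of Atp2a3 (left) and of Atp2a2 (right), against distance in kb from the middle of that gene, which is drawn as a diamond. Around Atp2a3 the neighbours lie between -0.18 and 0.24, while around Atp2a2 the P2rx7 point stands at 1.86.

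Exons of the 10 genes share at most 2.58% of their merged length with another annotated gene (Itpr3 and the antisense Itpr3os), and no source used here gives the strand setting of the counting. Among the 4 tested genes whose centred profile over the 6 libraries was nearest to that of Atp2a3 were Nedd9, an adhesion scaffold (Euclidean distance 0.45 on the log2 scale), Svil, the actin-binding supervillin (0.66), and Clec7a, the beta-glucan receptor Dectin-1 (0.83). Nedd9 was at 0.0292 ± 0.0371 CPM in KO and 10.3 ± 1.23 CPM in WT. Svil was at 0.215 ± 0.101 CPM in KO and 12.5 ± 0.731 CPM in WT. Likeness here means a nearly complete loss in KO with little spread among libraries, and by construction it picks such genes.

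Other genes of calcium handling were read from 8 lists drawn up by function, with earlier results of these data known. Their adjusted p-values are therefore readings from the fit over all genes and no independent support. Of the 123 listed genes 90 were tested. Among these 17 rose, 13 fell and 60 did not pass, with a median log2 fold change of -0.03. Plcb1, Plcl1 and Camk2b, among the 13, qualified through the WT libraries alone and had to be lower. Without KO replicate 1 the called genes numbered 19 in place of 30, 7 of them lower, and without KO replicate 2 the lower ones numbered 8. The called share of 33.3% is close to the 30.4% of all tested genes. Single lists, of few genes each, had called shares of 16.7% to 50%. Over all tested genes 18.6%, 20.7% and 22.3% were called without KO replicates 1, 2 and 3, and 28.8% with quantile normalization. Without WT replicate 1 the called genes were 3761 of 10614 and without WT replicate 2 they were 2985, against 3230. Moves in the list counts below were not separated from these shifts over all genes.

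Among other ER pumps, release and leak channels 1 of 6 tested genes rose and 5 did not pass, and 2 were called without WT replicate 1 or WT replicate 2. The one that rose was Ryr1, a ryanodine receptor best known as the release channel of skeletal muscle. It had 9.03, 8.53 and 7.28 CPM in KO and 2.50, 2.34 and 2.04 CPM in WT, a log2 fold change of 1.65 ± 0.11 (adjusted p = 3.66e-05). Among regulators of the pumps, IP3 receptors and STIM-ORAI, 3 of 13 rose and 1 fell, and without KO replicate 1 the list had 2 called genes. Erlin1, part of the complex that sends active IP3 receptors to degradation, was at 95.7 ± 0.833 CPM in KO and 73.5 ± 3.53 CPM in WT (log2 fold change 0.38 ± 0.06, adjusted p = 0.00289). Ssfa2, on chromosome 2, encodes a protein that anchors IP3 receptors to actin and was at 117 ± 7.39 CPM in KO and 85.2 ± 3.87 CPM in WT (log2 fold change 0.46 ± 0.07, adjusted p = 0.00216). Ahcyl2, a relative of the IP3 receptor inhibitor IRBIT, lies on chromosome 6, where the median was -0.16. It fell to 72.4 ± 4.03 CPM in KO, against 91.0 ± 4.60 CPM in WT. Its log2 fold change was -0.33 ± 0.07 (adjusted p = 0.0103), a call that was lost without KO replicate 1 (-0.28).

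Among ER luminal calcium-binding proteins 5 of 12 tested genes rose, 1 fell and 6 did not pass, with a median log2 fold change of 0.19. Hspa5, the chaperone BiP, was at 2683, 2679 and 2700.1 CPM in KO and 1858, 1864 and 1892 CPM in WT (log2 fold change 0.52 ± 0.06, adjusted p = 0.000692). Pdia3, a disulfide isomerase that works with calreticulin, was at 1748 ± 23.4 CPM in KO and 1122 ± 66.7 CPM in WT (log2 fold change 0.64 ± 0.07, adjusted p = 0.000399). Rcn1, a calcium-binding protein of the secretory pathway, was at 60.4 ± 1.15 CPM in KO and 38.7 ± 3.11 CPM in WT (log2 fold change 0.64 ± 0.08, adjusted p = 0.000631). These 3 genes all lie on chromosome 2, where the median was 0.34. The rest of the 5 lie elsewhere: Calr on chromosome 8 (log2 fold change 0.32 ± 0.07, adjusted p = 0.0110) and Hsp90b1 on chromosome 10 (0.34 ± 0.08, adjusted p = 0.0152). With no minimum CPM the list had 4 called genes, Hspa5, Pdia3 and Rcn1 among them. Calr and Hsp90b1 were thus not both called in that setting. The list's summed level was 10764 to 10932 CPM in KO and 8183 to 8580 CPM in WT.

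Among plasma membrane and Golgi pumps and exchangers 1 of 5 tested genes fell and 4 did not pass, and 2 were called without WT replicate 1. That gene was Slc8a1, the sodium-calcium exchanger NCX1, at 17.2 ± 0.449 CPM in KO and 25.6 ± 1.50 CPM in WT (log2 fold change -0.56 ± 0.07, adjusted p = 0.00116). In phospholipase C and IP3 metabolism 5 of 13 fell and 8 did not pass. That list had 2 called genes without KO replicate 1 or KO replicate 2, and 3 without KO replicate 3 or WT replicate 2. Plcb1, a phospholipase C driven by G proteins, was at 0.554, 0.535 and 0.465 CPM in KO and 4.38, 7.51 and 7.09 CPM in WT (log2 fold change -2.71 ± 0.19, adjusted p = 3.56e-05). The WT mean was 12.2 times the KO mean, while the chromosome 2 median was on the higher side. Plcl1, a phospholipase C relative that binds IP3 without cleaving lipid, was at 0.791 ± 0.0601 CPM in KO and 2.53 ± 0.364 CPM in WT (log2 fold change -1.22 ± 0.12, adjusted p = 0.000246). Both genes were below 1 CPM in every KO library and qualified for testing through WT alone. They had to be lower in KO, so their calls and adjusted p-values are no support for a fall. Plcd3, a phospholipase C of the delta class, was at 5.59 ± 0.424 CPM in KO and 7.74 ± 0.648 CPM in WT (log2 fold change -0.44 ± 0.10, adjusted p = 0.0130). Its call was lost without KO replicate 1 (-0.39), without KO replicate 2 (-0.42) and with quantile normalization (-0.24).

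**Figure D5:**
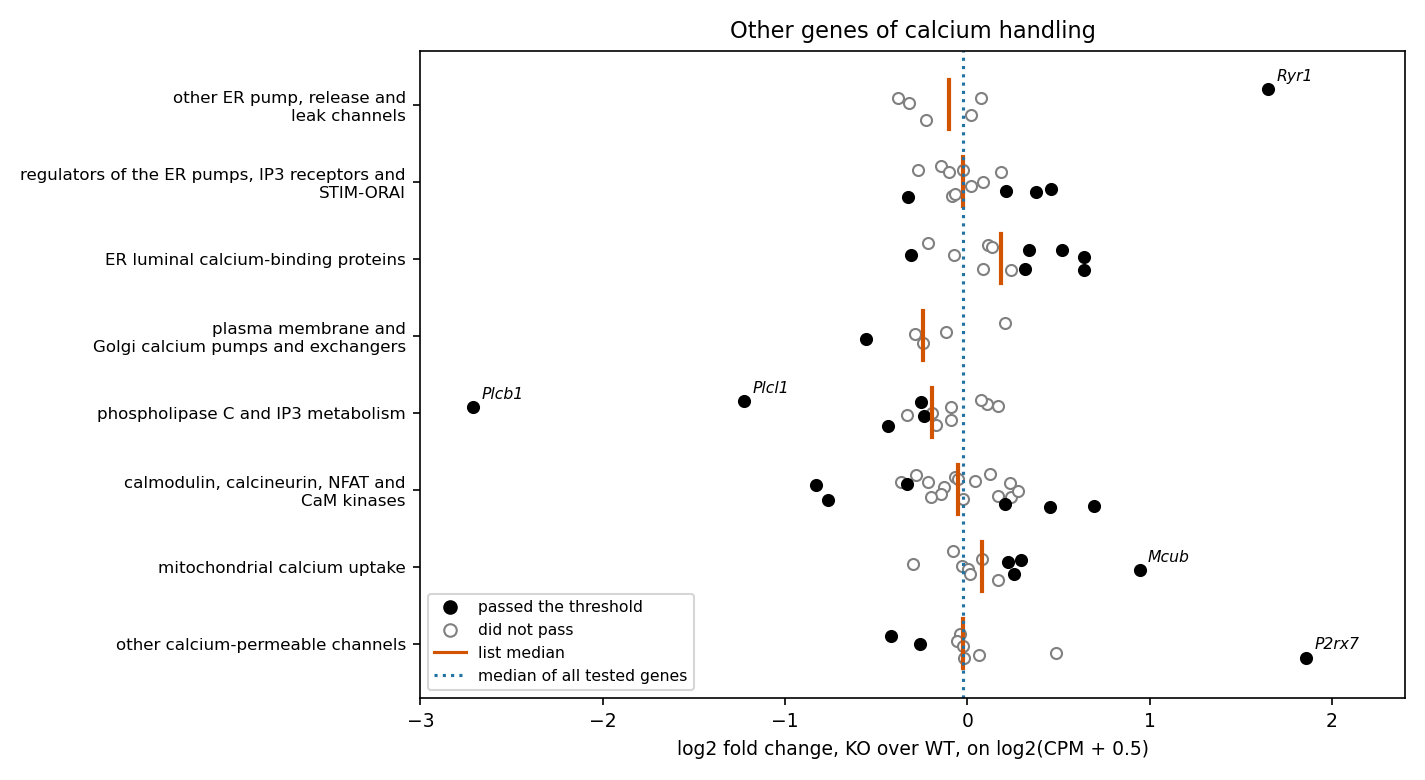
Log2 fold change (KO over WT, on log2(CPM + 0.5)) of each tested gene in the 8 lists of other calcium-handling genes, filled where called, with list medians in orange and the median of all tested genes (-0.02) as a dotted line. Ryr1 and P2rx7 lie farthest to the right, at 1.65 and 1.86, and Plcb1 farthest to the left, at -2.71.

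Of 21 tested genes of the calmodulin, calcineurin, NFAT and CaM kinase list 3 were called higher and 3 lower. That is a share of 28.6%, close to the 30.4% of all tested genes. One of the lower genes, Camk2b, was under 1 CPM in every KO library and qualified for testing through WT alone, so it had to differ. Nfatc2, a calcineurin-activated transcription factor on chromosome 2, was at 69.9 ± 4.93 CPM in KO and 42.9 ± 1.35 CPM in WT (log2 fold change 0.69 ± 0.07, adjusted p = 0.000345). Camk2a, a calmodulin-dependent kinase, was at 10.1 ± 0.172 CPM in KO and 17.6 ± 0.512 CPM in WT (log2 fold change -0.76 ± 0.07, adjusted p = 0.000196).

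In mitochondrial calcium uptake 4 of 11 genes rose and 7 did not pass, and 2 were called without KO replicate 1, without KO replicate 2 or with quantile normalization. Mcub, a subunit that dampens the calcium uniporter, was at 30.9, 32.4 and 31.2 CPM in KO and 16.7, 15.7 and 16.0 CPM in WT (log2 fold change 0.95 ± 0.07, adjusted p = 4.67e-05). Vdac2, a channel of the outer membrane, was at 522 ± 17.9 CPM in KO and 425 ± 11.7 CPM in WT (log2 fold change 0.30 ± 0.06, adjusted p = 0.00751). Its paralog Vdac3 rose by less (0.26 ± 0.07, adjusted p = 0.0209), a call lost without KO replicate 1 (0.28), without KO replicate 2 (0.22) and with quantile normalization (0.19).

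Of 9 other calcium-permeable channels 1 rose and 2 fell, and 1 was called without KO replicate 1 or KO replicate 2. P2rx7 had 145.5, 146 and 160.1 CPM in KO and 40.4, 42.7 and 40.2 CPM in WT (log2 fold change 1.86 ± 0.07, adjusted p = 1.19e-06), a KO over WT ratio of 3.66. The lysosomal channel genes Tpcn2 (log2 fold change -0.42 ± 0.12, adjusted p = 0.0302) and Mcoln1 (-0.26 ± 0.08, adjusted p = 0.0431) fell. The Tpcn2 call was lost without KO replicate 1 (-0.36), KO replicate 2 (-0.39) or WT replicate 2 (-0.32). The Mcoln1 call was lost when any library other than WT replicate 1 was left out, with log2 fold changes of -0.31 to -0.19 in those runs, and also with no minimum CPM and with no mean-variance trend.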

How the data were processed

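Poly(A) RNA of RAW 264.7 KO and WT plates (3 each) was sequenced, per the labels' protocols. STAR 2.6.0a, Trim Galore, Picard, FastQC, SAMtools and the build mm10 are named in the submitters' processing notes. Duplicates were taken out, per the file headers. No source used here gives the read counter, its annotation or its strand setting. The authors deposited CPM for 24848 gene symbols. Their values were whole multiples of a single read in 100% of cases (tolerance 0.01 of a read), so reads were recovered for the count tests: the edgeR 4.0.16 quasi-likelihood test called 3359 genes and DESeq2 1.42.0 called 3758.

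The main fit was limma 3.58.1 (R 4.3.3; lmFit, eBayes with trend, no covariates) on log2(CPM + 0.5) for genes that reached 1 CPM in 3 or more libraries, with Benjamini-Hochberg adjustment over all 10614. It was also run on simulated counts with the same spread setting for every gene. These libraries need not meet that setting, so the run does not vouch for the calls here. The members and lists were chosen with earlier results of these data known. Named genes are the 10 members, Apobec1, up to 3 called genes per list by adjusted p, and the 4 nearest to Atp2a3 in profile. Some genes that this rule selects are not reported here. Calr, Hsp90b1, Camk1d, Camk2b and the single macrophage markers were named after their values were seen. P-values measure the spread between plates. Lengths and positions come from GENCODE M21 (24305 symbols matched). The 18 alternatives were pseudocounts of 0.1 and 1 CPM, no minimum or 5 CPM, TMM, quantile and Rn45s-free scaling, limma without trend or robust, a replicate block, both count tests and each library left out. Merged exon length as a second length was added after the data were seen.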

Additional observations from a re-analysis of the deposited data

How the results depend on the processing

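Atp2a3 and Itpr2 remained called lower in all 18 alternative settings, and the direction of every one of the 10 genes was the same in all of them. Atp2a3 was picked with its difference known and qualified in the main fit through the WT libraries alone. Its unchanged call is therefore no support for its fall. The number of the 10 genes called was 5 in DESeq2, which added Atp2a2 and Itpr3, and 2 to 4 when a library was left out, against 3 in the main fit. Over all genes 1973 to 3761 were called when a library was left out (1973 without KO replicate 1), and of the 90 tested list genes 19 to 36 (19 without KO replicate 1), against 3230 and 30. The replicate block called 2009 genes, 18 of the list genes and the same 3 members. Plcd3, Vdac2, Vdac3, Tpcn2 and Mcoln1 were among the list genes that lost their calls under it. The ER luminal list had 4 called genes under it, Hspa5, Pdia3 and Rcn1 among them, so Calr and Hsp90b1 were not both called. Same-numbered libraries share only a number: their deviations from the group means correlated at -0.25, -0.64 and -0.17, and no library correlated best with its own number. Median log2 fold changes of all tested genes moved by at most 0.05 from the main fit under any scaling. Higher calls outnumbered lower ones with TMM scaling (1839 and 1570) and quantile normalization (1570 and 1486). Low genes are limited by a floor of 0.0426 to 0.0594 CPM (3 reads).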

Other observations

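Camk1d, a calmodulin-dependent kinase gene of the lists that did not pass the threshold, stood at 277, 196 and 231 CPM in KO replicates 1, 2 and 3 and at 482, 134 and 349 CPM in WT replicates 1, 2 and 3. Its order over the 6 libraries was that of the ribosomal RNA precursor Rn45s, which took 1.40%, 0.542% and 0.635% of reads in the KO libraries and 2.75%, 0.381% and 2.43% in the WT libraries. Of the 10614 tested genes, 9 had exactly that order, a share of 0.0848%. Any given order of 6 libraries is rare, so the small share does not make the match remarkable. Camk1d was also picked after its values were seen. The part of Rn45s in the level of Camk1d was not tested.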
